A study of Mus musculus with 2 samples.

Results

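GATA4 occupancy was examined at 10 genes that encode the albumin family and other abundant plasma proteins made by the liver: Alb, Afp, Afm, Gc, Ttr, Ambp, Ahsg, Pzp, A2m and Hpx. A GATA4 occupied site (OS) was assigned to a gene when its midpoint lay in the gene body or within 50 kb of it, on mm9 with the GENCODE M1 annotation. Of the 4409 OS of the common list, 7 met this rule, and 6 of the 10 genes held at least 1 of them. Alb held 3, Ahsg held 2, and Afp, Afm, Ttr and Pzp held 1 each, with a single OS counted for Alb, Afp and Afm. Gc, Ambp, A2m and Hpx held none.

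The sample was whole liver of mice aged 2 to 3 months on a C57BL/6 x Sv129 background, with no genotype or treatment in the labels, immunoprecipitated with the GATA4 C-20 antibody. The age is that of the labels, and the methods give a slightly older range. Genomic DNA from liver, sequenced without immunoprecipitation, was the input. The methods describe biological replicates of pooled mice, but each peak list covers them together, so no value per replicate can be given and peaks have no replicate error. Whole liver mixes hepatocytes with endothelial and other cells, and the lists do not tell in which cells a site was occupied. The lists hold positions without reads, which leaves the depth behind a single peak unknown.

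Hepatocytes secrete most plasma proteins. Albumin, alpha-fetoprotein, afamin and vitamin D binding protein form a family of related carriers whose genes lie on the same chromosome, and Afp is known for high expression in fetal liver that falls sharply after birth. GATA factors are zinc finger proteins that bind DNA at the core GATA, and the far upstream enhancer of Alb is a textbook place where GATA4 and FOXA factors bind early in liver development. In the sequences below, a GATA word is an exact match on either strand to the word AGATAA, to AGATAG, to TGATAA or to TGATAG, which are the forms of the pattern WGATAR. GATA words are shown in capitals and each sequence is the plus strand of mm9, so a word on the minus strand appears as its reverse complement (TTATCT for AGATAA).

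Among all 22380 protein-coding gene entries, 27.7% had a common OS by the same rule, against 6 of the 10 plasma protein genes. Among the 9432 protein-coding genes with a body of 7397 to 43154 bp, the range of the 10 genes, the share was 30.4%. Windows of the 10 genes covered 1.06 Mb and held 6.63 common OS per Mb, compared with 2.33 per Mb in the windows of all protein-coding genes and 1.67 per Mb over the chromosomes that hold an OS. The 10 genes are not independent, since the windows of Alb, Afp and Afm overlap. Without the OS that these share, 4 of the 10 genes and 6 OS were left. With MACS2 peaks in place of common OS, 6 of 10 genes again held a peak, against 33.9% of protein-coding genes.

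**Figure D1:**
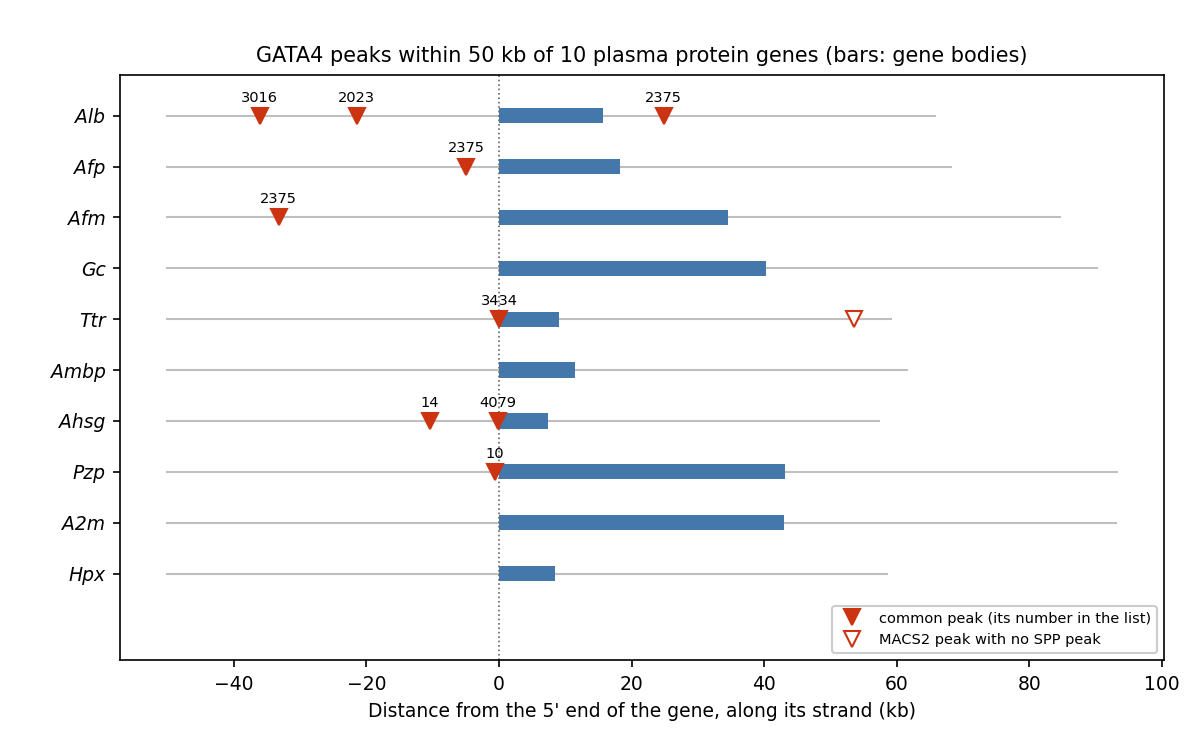
Each row is 1 gene drawn along its own strand, with the distance from its 5′ end in kb on the x axis, the gene body as a bar and the window as a line. Filled triangles are common GATA4 OS with their number in the list, and the open triangle is a MACS2 peak that no SPP peak overlapped. All filled triangles lie outside the gene bodies, and 3 of them lie within 1 kb of a start site.

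All 7 OS had their midpoint outside protein-coding genes, although the OS at Ttr reached past the TSS into the gene body. Of the other 4402 common OS, 52.0% had their midpoint inside a protein-coding gene body. The sets are unlike, since the 7 come from windows that reach 50 kb beyond each gene and the others from the whole genome. Each of the 7 midpoints lay upstream of the protein-coding TSS nearest to it, at Ttr by only 18 bp. The nearest TSS belonged to 1 of the 10 genes in every case (Alb, Afp, Ahsg, Pzp or Ttr). Among 1433 other common OS outside gene bodies and within 50 kb of a TSS, 76.5% lay upstream of the nearest TSS. A common OS within 1 kb of a TSS was found at 3 of the 10 genes (Ttr, Ahsg and Pzp), compared with 3.44% of protein-coding genes. A further comparison counted genes with at least 2 OS in the window, which were 2 of the 10 (Alb and Ahsg) and 9.15% of protein-coding genes. These comparisons of position were chosen after the values were seen.

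The albumin family cluster on chromosome 5 held 3 OS. Alb, the gene for serum albumin (90889915 to 90905629, plus strand), had an OS 36.1 kb upstream of its TSS, from 90853669 to 90853988, and another 21.5 kb upstream, from 90868386 to 90868542. The third, from 90914688 to 90914817, lay between Alb and Afp, 24.8 kb downstream of the Alb TSS and 4.99 kb upstream of the TSS of Afp (90919740 to 90937933, plus strand), the alpha-fetoprotein gene. It also counted for Afm, the gene for the vitamin E carrier afamin (90947958 to 90982569, plus strand), whose TSS is 33.2 kb further along. No gene of the annotation covered any of these midpoints. Their numbers were 3016, 2023 and 2375 of 4409 in the common list, in the order given, and the overlapping MACS2 peaks were numbers 3561, 3132 and 2639 of 5867. All 3 thus stood in the middle part of both lists.

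These 3 OS differed in their sequence. The OS 36.1 kb upstream of Alb held 3 GATA words, 101 and 17 bp to the left of the midpoint and 66 bp to the right. The OS 21.5 kb upstream held 1, AGATAA, 11 bp right of the midpoint. The 130-bp OS between Alb and Afp held neither a GATA word nor a 5-base core (the first or the last 5 bases of a GATA word), but the 572-bp MACS2 peak over it held 3 words, 85 bp left and 194 and 325 bp right of the midpoint of the common OS. The last sequence is therefore shown with its flanks, and the first is shown for its central 300 bp because the OS is 320 bp wide. The stretch with flanks holds 2 of the 3 words, and the word 325 bp right lies beyond it.
Alb upstream OS, chr5:90853679-90853978: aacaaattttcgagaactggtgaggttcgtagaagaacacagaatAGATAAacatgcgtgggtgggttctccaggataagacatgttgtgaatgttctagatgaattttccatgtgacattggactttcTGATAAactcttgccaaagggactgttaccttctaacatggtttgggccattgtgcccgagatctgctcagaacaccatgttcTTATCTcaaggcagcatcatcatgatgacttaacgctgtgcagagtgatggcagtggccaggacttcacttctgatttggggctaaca
Alb upstream OS, chr5:90868386-90868542: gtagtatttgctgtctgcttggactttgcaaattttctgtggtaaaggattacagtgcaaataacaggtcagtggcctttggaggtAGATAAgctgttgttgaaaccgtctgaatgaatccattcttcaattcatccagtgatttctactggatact
OS between Alb and Afp with flanks, chr5:90914655-90914954: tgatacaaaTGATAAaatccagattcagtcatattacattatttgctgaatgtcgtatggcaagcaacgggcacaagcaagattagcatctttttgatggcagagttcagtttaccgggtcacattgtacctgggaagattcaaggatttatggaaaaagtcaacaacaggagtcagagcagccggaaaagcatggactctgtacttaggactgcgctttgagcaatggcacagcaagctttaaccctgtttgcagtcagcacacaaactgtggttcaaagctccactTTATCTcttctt

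The study also designed ChIP-qPCR primers at the Alb enhancer, and their place was compared with the peak lists. By ChIP-qPCR in whole liver, the paper reports GATA4 occupancy at this enhancer, and those values are not analysed here. A missing peak means only that none passed the threshold of the lists. Primer pair 1 for the enhancer had a single product on mm9, chromosome 5 from 90879136 to 90879298, 10.7 kb upstream of the Alb TSS. No common OS, SPP peak or MACS2 peak overlapped it, and the nearest common OS was 10.6 kb away and the nearest MACS2 peak 10.5 kb away. The amplicon of 163 bp held no GATA word and 1 five-base core, TGATA, shown in capitals below. It also held 1 forkhead word, TGTTTGC, a form that FOXA factors bind. In the 2001 bp around the amplicon there were 6 GATA words. The amplicon of the first negative control pair, 13.7 kb downstream of the TSS at 90903582 to 90903632, was 11.1 kb from the nearest common OS. The 2001 bp around this control amplicon held 5 GATA words, close to the 6 around the enhancer amplicon. The second enhancer pair and the second control pair could not be placed as their letters were read here. The sequence is printed because it is the part of the enhancer where the primers sit.
Alb enhancer amplicon, chr5:90879136-90879298: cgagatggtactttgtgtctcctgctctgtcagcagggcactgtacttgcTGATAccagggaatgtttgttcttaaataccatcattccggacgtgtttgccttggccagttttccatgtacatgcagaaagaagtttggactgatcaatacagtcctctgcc

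Gc encodes the vitamin D binding protein, the family member that lies apart from the others (chromosome 5, 89846549 to 89886790, minus strand). Its window held 0 peaks of any of the 3 lists. The nearest common OS, number 3409, was 477.5 kb from the gene body, on the side of its 3′ end, and the TSS nearest to that OS was that of Slc4a4. Of protein-coding genes, 75.1% had a common OS nearer to the gene body. The Gc window was not poor in GATA words, with 383 of them or 2.73 per kb, compared with 2.71 per kb in the window of Alb, 2.81 in that of Afp and 2.40 in that of Afm.

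Ahsg encodes fetuin-A, a plasma protein that binds calcium phosphate and keeps it from precipitating. The gene (chromosome 16, 22892115 to 22899511, plus strand) had 2 common OS, which stood at opposite ends of the lists. The OS 10.4 kb upstream of the TSS, from 22881571 to 22881846, was number 14 of the common list, and the MACS2 peak over it was number 177. The OS at the promoter, from 22891791 to 22892110 with its midpoint 165 bp upstream of the TSS, was number 4079, and its MACS2 peak was number 5381. The upstream OS held 3 GATA words, 7 bp left and 104 and 119 bp right of its midpoint, and the promoter OS held 2, 51 bp left and 137 bp right. The first is shown whole, and the second, chosen for display because it covers the promoter, for its central 300 bp.
Ahsg upstream OS, chr16:22881571-22881846: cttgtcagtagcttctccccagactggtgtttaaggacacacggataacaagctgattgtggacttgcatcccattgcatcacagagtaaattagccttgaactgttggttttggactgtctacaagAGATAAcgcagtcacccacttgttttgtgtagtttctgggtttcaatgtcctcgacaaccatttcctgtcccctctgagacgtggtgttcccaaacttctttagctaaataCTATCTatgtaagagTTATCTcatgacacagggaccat
Ahsg promoter OS, chr16:22891801-22892100: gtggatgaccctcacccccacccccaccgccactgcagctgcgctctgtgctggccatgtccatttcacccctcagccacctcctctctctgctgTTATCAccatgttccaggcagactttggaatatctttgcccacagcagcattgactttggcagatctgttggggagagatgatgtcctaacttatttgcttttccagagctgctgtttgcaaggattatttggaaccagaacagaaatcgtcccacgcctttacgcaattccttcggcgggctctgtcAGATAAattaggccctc

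Fetub, the paralog of Ahsg on the same chromosome, encodes fetuin-B and shared both OS, the nearer of which, the Ahsg promoter OS, lay 26.5 kb upstream of the TSS of Fetub. The TSS nearest to each was that of Ahsg.

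Pzp, which encodes the alpha-macroglobulin named pregnancy zone protein, a protease inhibitor of mouse plasma, had the OS with the lowest number of the 10 genes. It lay 629 bp upstream of the TSS of the gene (chromosome 6, 128433585 to 128476738, minus strand). It was number 10 of the common list and number 10 of the SPP list, and the 637-bp MACS2 peak over it was number 15. It held 3 GATA words, the nearest of them 10 bp from the midpoint.

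A2m, the related gene for alpha-2-macroglobulin (chromosome 6, 121586191 to 121629255, plus strand), had 0 peaks of any list in its window. Its nearest common OS, number 1212, was 149 kb beyond the 3′ end and lay 10.3 kb upstream of the TSS of Mug1, a murinoglobulin gene of the same family. Mug2, named here after its values were seen, had none. Of these 4 macroglobulin genes, Pzp and Mug1 therefore had a common OS and A2m and Mug2 had none. The A2m window held more GATA words than that of any other of the 10 genes, 454 or 3.17 per kb, against 387 or 2.70 per kb for Pzp.

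Ttr encodes transthyretin, the carrier of thyroxine and, with retinol binding protein, of retinol. Its gene (chromosome 18, 20823751 to 20832825, plus strand) had 1 common OS, which covered the TSS. The OS ran from 20823574 to 20823893 with its midpoint 18 bp upstream of the TSS, inside an exon of the non-coding transcript Gm16090. It was number 3434 of the common list and its MACS2 peak was number 4516. The OS held 0 GATA words and 1 five-base core, and the MACS2 peak of 405 bp held 1 GATA word, 189 bp left of the midpoint. A second MACS2 peak, number 5144, lay 53.5 kb downstream of the TSS and overlapped no SPP peak. The nearest TSS to that peak was that of B4galt6, at 27.7 kb, and it was the only peak in the 10 windows that 1 caller alone had listed.

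Ambp and Hpx held no peak of any list. Ambp, which encodes the precursor of alpha-1-microglobulin and bikunin (chromosome 4, 62804309 to 62815833, minus strand), had its nearest common OS 78.0 kb upstream, number 3421, closest to the TSS of Col27a1. Hpx, which encodes the heme scavenger hemopexin (chromosome 7, 112740127 to 112748630, minus strand), had its nearest common OS 208.5 kb upstream, number 2406, closest to the TSS of Mrpl17. Over all protein-coding genes the median distance from the gene body to the nearest common OS was 157.2 kb (quartiles 41.5 and 476.6 kb). Ambp and A2m were thus nearer to an OS than the median gene, and Hpx and Gc farther.

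**Figure D2:**
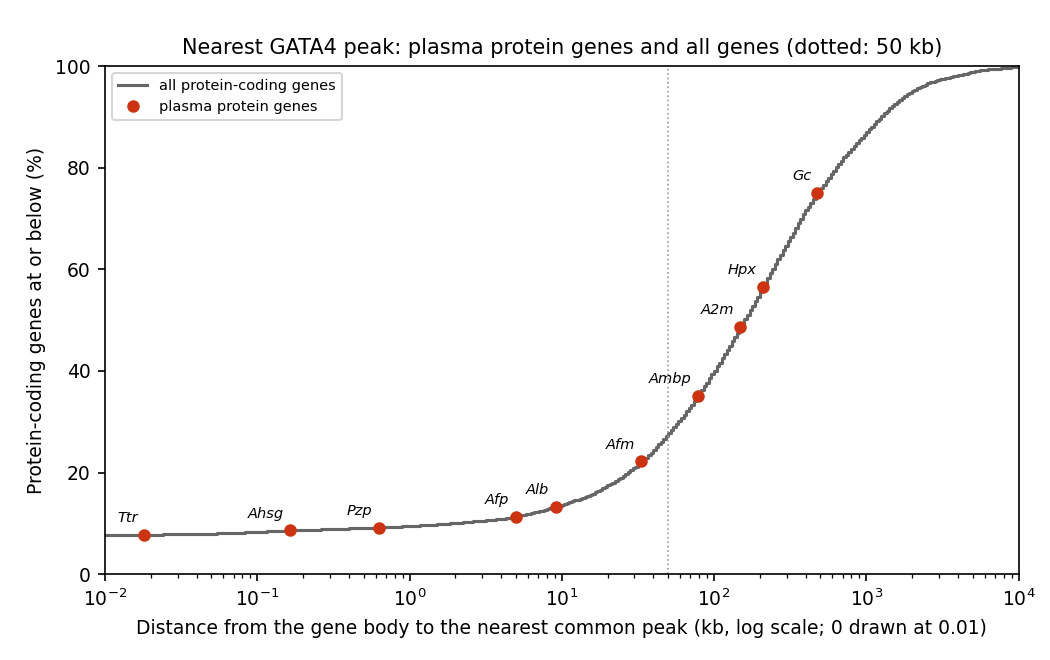
The curve gives the share of protein-coding genes (y axis, %) whose body lies within a given distance of a common GATA4 OS (x axis, kb, log scale), and the points place the 10 plasma protein genes on it. Ttr, Ahsg, Pzp, Afp, Alb and Afm lie left of the dotted line at 50 kb, and Ambp, A2m, Hpx and Gc lie right of it, from 78.0 to 477.5 kb.

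In GATA words the windows of genes with and without an OS overlapped. Windows without an OS held 189 to 454 GATA words each (Hpx and A2m), and windows with an OS held 212 to 387 (Ahsg and Pzp). Reads were kept only when placed uniquely, so the share of 48-base words that occur once in the genome was also counted. It was 85.7% for Gc, 86.5% for A2m, 96.7% for Hpx and 98.3% for Ambp, compared with 87.0% to 95.7% for the windows of genes with an OS. Within the gene body it was lowest in Afm, at 68.5%, and 81.0% or more in the others.

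Position in the lists is the only order that the files give, since every peak has the same score of 1000. In the comparison of replicates, the methods put SPP peaks in order of their signal value, and used the p-value to order those of MACS2. Whether the deposited numbers keep these ranks is not stated in the sources used here. The 7 OS had a median number of 2375 and the other 4402 common OS 2204.5. Of the 7, 2 (Pzp and Ahsg) were among the first 20 of the common list, which are 0.454% of it, and the other 5 had numbers of 2023 or more. The MACS2 numbers ran from 15 to 5381 with a median of 3132, against 2193.5 for the other common OS.

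**Figure D3:**
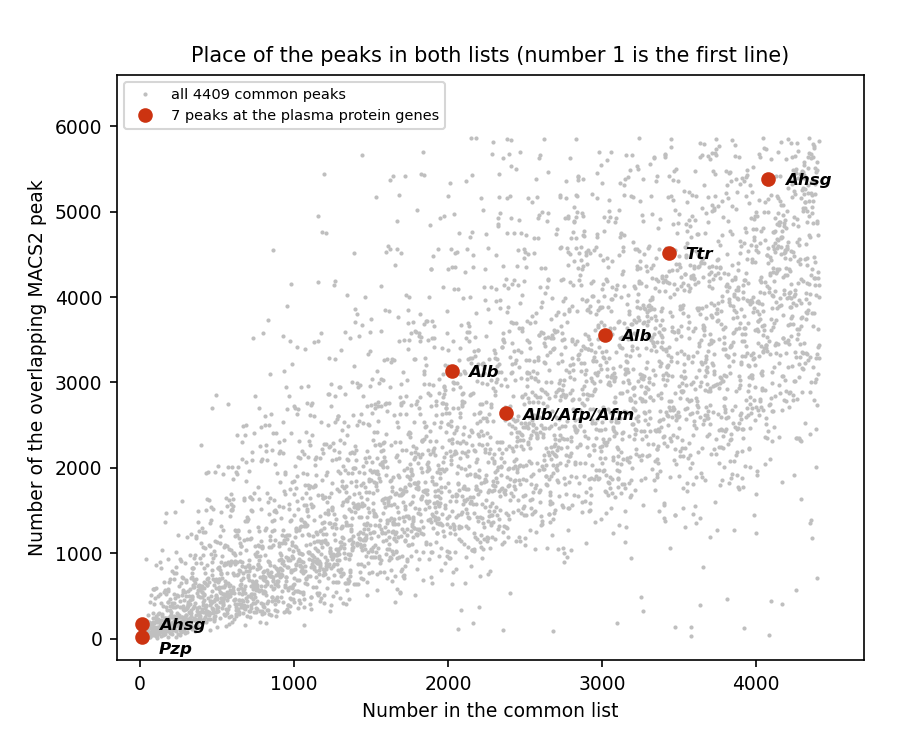
Each grey point is 1 of the 4409 common GATA4 OS, with its number in the common list on the x axis and the lowest number of the overlapping MACS2 peaks on the y axis, and red points are the 7 OS at the plasma protein genes. Pzp and the upstream OS of Ahsg sit near the start of both lists, at 10 and 14 in the common list. Their MACS2 numbers are 15 and 177. The promoter OS of Ahsg sits near the end of the common list, at 4079.

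A GATA word occurred in 5 of the 7 OS (71.4%, 35.9 to 91.8 by the Wilson method at 95%), compared with 82.9% of the other common OS (81.8 to 84.0). With 7 OS a difference of this size could not be told from counting error. All 7 MACS2 peaks over them held at least 1 GATA word. There were 3 words in 3 of the 7 OS, those of Pzp, Ahsg upstream and Alb 36.1 kb upstream, and at least 3 words in 9.70% of the other common OS. The OS at the plasma protein genes had a median width of 276 bp, against 190 bp in the rest, and 3 of them had the commonest width of 320 bp. Their GC content was 39.5% to 51.9% with a median of 44.7%, against a median of 49.4% in the other common OS. The density of GATA words, which takes the width into account, was 6.67 per kb against 6.22 per kb.

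**Figure D4:**
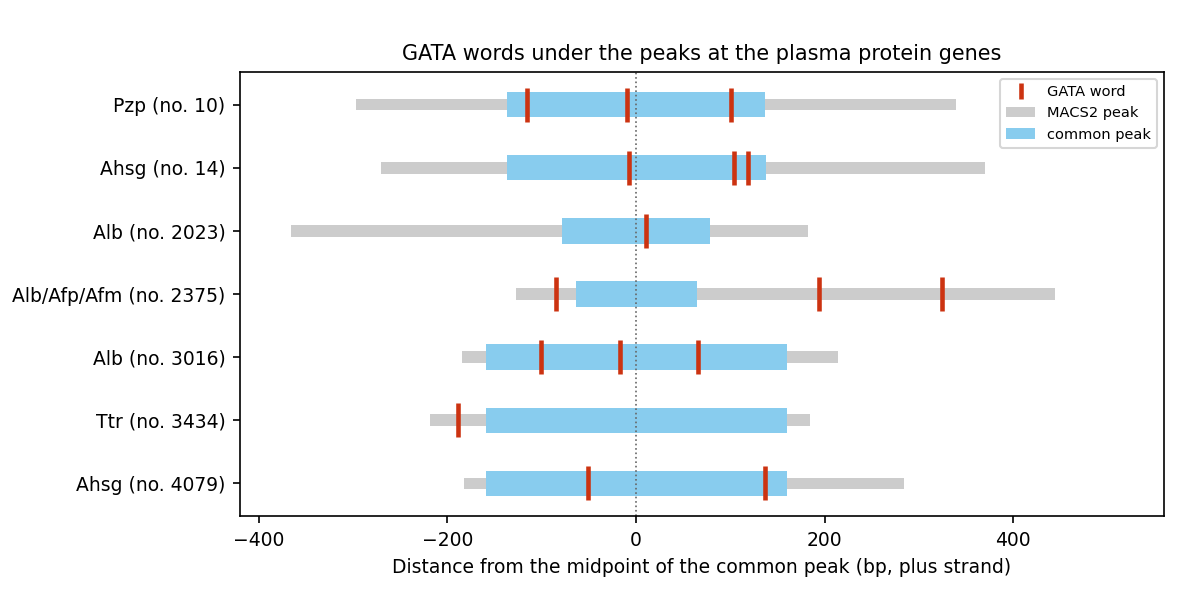
Each row is 1 GATA4 OS, with the distance in bp from its midpoint on the x axis, the common peak in blue, the MACS2 peak over it in grey and GATA words as red ticks. In 5 rows a tick lies inside the blue bar, within 51 bp of the midpoint, and in the rows of Alb/Afp/Afm and of Ttr the ticks lie in the grey part, at 85 bp or more.

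Words of other liver factors were searched on both strands in the same OS. The C/EBP word TTGCNNAA was in 3 of the 7 OS (the one between Alb and Afp, the one 36.1 kb upstream of Alb, and the Ahsg promoter, 15.8% to 75.0% by the Wilson method) and in 12.6% of the other common OS. The forkhead words TGTTTAC and TGTTTGC, which FOXA factors bind, were in 1 of the 7 (the Ahsg promoter) and in 12.2% of the others. The site AGGTCA of nuclear receptors was in 1 of the 7 and 24.3% of the others, and GGAAGT of ETS factors in 1 of the 7 and 25.3%. The HNF1 word GTTAAT was in 0 of the 7 (Wilson upper bound 35.4%) and in 5.29% of the others. The E-box CANNTG was in 4 of the 7 and 60.3% of the others. These words overlapped no GATA word in the 7 OS, and a match is a run of letters, not a bound site. The shares do not take into account that the 7 OS were wider, with a median of 276 bp against 190 bp. Several words were tried on the same 7 OS, and no difference was tested.

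Promoters from 250 bases before to 50 bases after the start were available from RefSeq (GRCm38.p6) for 8 of the 10 genes, all but Ttr and A2m. Of these, 5 held a GATA word, 2 in Ahsg and 1 each in Alb, Gc, Pzp and Hpx, and Afp, Afm and Ambp held none. Over all 32851 promoters of the table, 29.8% held at least 1. A common OS lay at the promoter of Ahsg, while the OS of Pzp began further upstream and no OS lay within 1 kb of the start of Alb, Gc or Hpx.

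Other genes for liver-secreted plasma proteins were examined by the same rule, from a list of 36. A common OS was found for 16 of them (44.4%), against 27.7% of protein-coding genes. These 16 genes held 17 different OS, 2 of which were those of Ahsg shared with Fetub. The 3 fibrinogen chain genes Fga, Fgb and Fgg shared 1 OS, number 3516, which lay 7.12 kb downstream of a TSS of Fga. Itih1, Itih3 and Itih4, of the inter-alpha-inhibitor heavy chain family, shared OS number 2677, 78 bp upstream of the TSS of Itih4. Trf, which encodes transferrin, had OS number 2790 at 107 bp upstream of a TSS. Cp, for the copper oxidase ceruloplasmin, had number 841 at 2.91 kb upstream, and A1bg, for alpha-1-B glycoprotein, had number 278 at 4.61 kb upstream. Further OS lay 10.3 kb upstream of the TSS of Mug1, 19.5 kb upstream of that of C3 and 36.0 kb upstream of that of Apoh. Apoa2, for a major protein of high-density lipoprotein, is named after its values were seen: it held 3 common OS, the most of the list, and the nearest, number 441, was 1.06 kb upstream of a TSS. The OS of Vtn and Kng1 lay 35.8 and 71.9 kb downstream of a TSS. The remaining 20 genes of the list had no common OS within 50 kb. A MACS2 peak was found for 19 of the 36, against 33.9% of protein-coding genes.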

How the data were processed

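GATA4 ChIP-seq peaks of whole mouse liver were analysed from 1 ChIP sample, with 1 input sample that has no file of its own here. Per the submitters' processing notes, the authors used Bowtie 0.12.7 (mm9), MACS2 2.0.10 and bedtools 2.16.1. By the methods, reads with more than 1 placement were dropped, SPP (modified) and MACS2 each called peaks, and IDR set the thresholds. The common list is the SPP peaks that MACS2 also called. The deposited score is 1000 in all 4409 common, 4811 SPP and 5867 MACS2 peaks and was not used, and list numbers stand in its place.

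Genes were taken from GENCODE M1 on NCBI Build 37, the same build, and all peaks end within its chromosomes. The 10 genes and all lists were chosen with earlier results of these data known, so no test was made. Named were the 10 genes, the nearest genes of their OS and up to 15 of the other list, and the genes nearest to OS outside the windows were added later. For sequences, the OS with the lowest number of each gene was taken, chromosome 18 left out, and 3 more were added after the values were seen. The sequence of the Pzp OS is not reported here. Wilson intervals (95%) cover counting error only. Primer pairs were placed by exact match of both primers within 1000 bp. Alternatives changed the reach, the list, the gene set and the GATA pattern. Coordinates count from 1. Python 3.11.15, scipy 1.17.1, pysam 0.24.0, numba 0.67.0 and samtools 1.23.1 were used. Functions were tested on simulated data, where 400 of 400 windows and 400 of 400 sequences gave the known answer.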

Additional observations from a re-analysis of the deposited data

How the results depend on the processing

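Of 34 alternatives, 25 gave a count of genes or OS, or a share of protein-coding genes, within 1.5 times the reported one, or a share of OS with a GATA word within its Wilson interval. The number of plasma protein genes with an OS went from 6 of 10 to 7 with a reach of 100 kb, 5 with 10 kb, 4 with 5 kb, 2 in the first 2000 of the common list and 0 in the gene body alone. The number of OS went from 7 to 4 with a reach of 10 kb or 5 kb, to 2 in the first 2000 of the list and to 0 in the gene body alone. The share of protein-coding genes with an OS fell to 13.7% with a reach of 10 kb. Among the 22350 protein-coding genes on chromosomes with an OS, it was 40.0% within 100 kb and 11.4% within 5.01 kb. For the gene body alone it was 7.68%. The share for the first 2000 of the list was not computed. The share of the 7 OS with a GATA word rose to 100% in 500 bp around the midpoint and to 100% in MACS2 peaks, which are wider. Leaving out the OS shared by Alb, Afp and Afm was added after seeing the data. With no read counts and 1 pooled list, a missing peak says only that none passed the authors' threshold.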
